A study of Homo sapiens with 6 samples.

Results

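The 99 genes described here were LINC-numbered genes (named as long intergenic noncoding RNAs) that had at least 60 read counts in these cells. They were chosen by measured values: the gene symbol had to be LINC followed only by digits, and its read counts summed over all 6 libraries had to reach at least 60. Of 56638 gene rows per library, 614 carried such a symbol; 302 of them had 0 counts in every library, 213 had 1 to 59 counts in all, and 99 met the rule. The rule fixed the level of these genes, so their levels are a description. It compared no groups, but a summed count also lets in a gene that is high in only 1 group. For 13 of the 99, among them LINC00941, LINC00704 and LINC00173, the sum would have stayed under 60 with both groups at the lower group's count, and 8 of the 13 were called below. For these a difference was partly built into the choice. Just inside the threshold stood LINC00639 with 60 counts and LINC00173 and LINC00869 with 63 each, and just outside it LINC00240, LINC00659 and LINC00846 with 56 each.

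Counts came from RNA sequencing of cells labelled SW480, an established line from a human colon cancer, with 3 libraries in each of 2 groups. Control cells were untreated, and the TGFB1 group had been given TGF-β1 at 10 ng/ml on more than 4 occasions. Both groups were at passages 16 to 19, and how long the exposure lasted is not stated. The study addressed the TGF-β pathway and resistance to chemotherapy, as its title states. Whether the 3 libraries of a group were separate cultures is not labelled. The p-values therefore rest on a spread between libraries that may be technical.

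A LINC number is a placeholder name for a transcript longer than the small RNA classes, without a recognised long reading frame and lying between coding genes when it was named. Such RNAs can act as scaffolds or decoys for proteins, can affect genes at their own locus, and some were later found to encode very short proteins. TGF-β1 signals through receptor kinases to SMAD transcription factors, and both coding and noncoding genes are among its targets in epithelial cells. In RefSeq (GRCh38.p14), to which all 99 symbols could be matched, 34 now have another symbol, 12 of them as protein-coding genes and 22 as long noncoding RNAs.

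Libraries held 13012898 to 16005222 counts in genes. Levels are given as CPM, read counts relative to the TMM-scaled library total (the usual CPM unit). The TGF-β target TGFBI stood at 14.6 CPM in control and 677 CPM in TGFB1 libraries on average, and PMEPA1 at 25.1 and 349 CPM. Of 11 listed markers of colorectal epithelium 6 were too low to be tested: CDX2 and ASCL2 had 0 counts in all 6 libraries, and CDX1, KRT19, KRT20 and VIL1 averaged no more than 0.151 CPM in either group. Among the tested 5, 3 fell: KRT18 (183 to 125 CPM), EPCAM (6.94 to 4.06 CPM) and CDH1 (1.09 to 0.271 CPM). LGR5 rose (0.3 to 1.03 CPM), and KRT8 did not pass (1710 and 1680 CPM). The 11 rows summed to 1900 to 1910 CPM in control and 1780 to 1820 CPM in TGFB1 libraries. Markers of fibroblasts moved with the treatment: all 5 tested of 10 listed rose, their 10 rows summing to 91.7 to 95.4 CPM in control and 121 to 137 CPM in TGFB1 libraries, with PDGFRA, COL1A2 and COL3A1 at 0 in control and at most 0.0659 CPM on average with TGF-β1. Immune markers summed to 2.50 to 2.85 and 4.35 to 6.48 CPM, with PTPRC, CD3D and MS4A1 at 0 counts in all libraries. Endothelial markers summed to 2.72 to 3.47 and 0.856 to 1.22 CPM, with PECAM1 and KDR at 0 counts. The identity of the line rests on its label and was not tested, although most listed colorectal markers were too low to be tested. The part of such markers in the results below was not tested. In bulk RNA, fewer cells with a transcript and less of it per cell cannot be told apart.

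Most LINC-numbered genes did not pass the test, and those that did went both ways. Of the 99 genes 98 had enough counts to be tested, the exception being LINC00869. Of these 98, 26 were higher with TGF-β1, 13 were lower and 59 did not pass (edgeR's quasi-likelihood test, adjusted p under 0.05 over all 14897 genes tested). The 39 called genes were 39.8% of those tested, where the share over all tested genes was 47.3%. Higher calls made up 26.5% against 23.4% of all tested genes, and lower calls 13.3% against 23.9%. Calls of 2-fold or more numbered 14 (14.3%, against 9.5% of all tested genes), of which 8 were higher (8.16% against 5.34%) and 6 lower (6.12% against 4.16%). Of these 14, 9 had enough counts for the test only through the group in which they were high, so nothing is read from the larger share. The groups did not overlap for 50 of the 98 genes (51.0%), and for 54.2% of all tested genes.

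LINC-numbered genes had fewer counts than most tested genes. The median LINC-numbered gene had 286 counts over the 6 libraries (3.29 CPM), and the median tested gene 1934 counts (22.1 CPM). The median standard error of a log2 fold change was 0.20 for LINC-numbered genes and 0.09 for all tested genes. The median log2 fold change was 0.16 against 0.00, and the median absolute log2 fold change of called genes was 0.72 against 0.45. A larger standard error lets only larger changes pass, and the filter on counts, described below, partly fixed some directions. Nothing is therefore read from either median. Split by level, 24 of 72 genes under 10 CPM were called (33.3%, against 34.7% of all tested genes under 10 CPM), and 15 of 26 at 10 CPM or more (57.7% against 54.1%). Within each of these wide ranges the share called in either direction was near that of all genes. Higher and lower calls were not split by level. Of the 98 tested genes 18 had enough counts in all libraries of only 1 group, 13 in TGFB1 and 5 in control, so their direction was partly fixed by that filter, and 11 of the 39 calls were among them. Of the 80 with enough counts in both groups 28 were called (35.0%), 17 higher (21.2%) and 11 lower (13.8%). All 13538 such genes gave 47.9%, 23.1% and 24.8%.

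**Figure D1:**
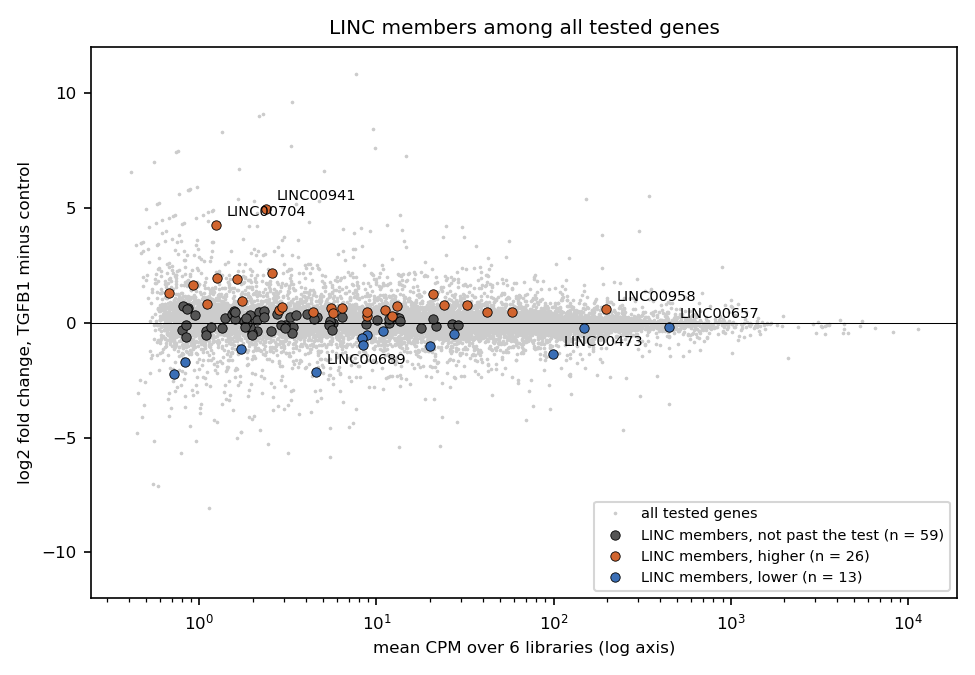
Log2 fold change (TGFB1 minus control, vertical axis) against mean CPM over the 6 libraries (horizontal log axis) for all 14897 tested genes in grey and for the 98 tested LINC-numbered genes as outlined points, orange for the 26 higher, blue for the 13 lower and dark grey for the 59 that did not pass. Most LINC-numbered points sit left of 10 CPM, and LINC00941 and LINC00704 stand above the others at 4.97 and 4.26.

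A few genes carried most of the reads. LINC00657, now named NORAD, a cytoplasmic RNA that binds the Pumilio RNA-binding proteins, took 29.4% to 31.4% of all counts in the 99 genes in control libraries and 26.6% to 27.1% in TGFB1 libraries. The 8 highest together took 65.1% to 68.7%, while 72 of the 98 tested genes averaged under 10 CPM and 12 of all 99 under 1 CPM. NORAD stood at 509, 460 and 461 CPM in control libraries 1 to 3 and at 420, 433 and 414 CPM in TGFB1 libraries. Its groups did not overlap, and it fell 1.13-fold (log2 −0.17 ± 0.05 SE, edgeR adjusted p = 0.00383). LINC00958, a noncoding RNA described in several carcinomas, moved the other way, from 161, 157 and 158 CPM to 250, 226 and 237 CPM. It rose 1.5-fold (log2 0.58 ± 0.05 SE, edgeR adjusted p = 5.23e-11), with every TGFB1 library above every control library. Per kilobase of the longest GENCODE 29 transcript the order of these genes was reversed, as LINC00958 had 102 CPM per kb in control cells and 152 with TGF-β1, and NORAD, whose transcript is longer, 89.3 and 79.1.

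LINC00473, a transcript known as a target of cAMP and CREB signalling, was the most abundant gene with at least a 2-fold change. It was at 146, 142 and 143 CPM in control and at 57.1, 56.7 and 53.7 CPM in TGFB1 libraries, 2.57-fold lower (log2 −1.36 ± 0.05 SE, edgeR adjusted p = 2.83e-18). The 3 libraries of each group lay close together and the groups were far apart. LINC00963 was lower by a smaller amount, 161 ± 1.62 against 136 ± 3.22 CPM (mean ± SD over 3 libraries, edgeR adjusted p = 1.29e-04). LINC00707 rose from 35.2 ± 1.32 to 49.1 ± 2.93 CPM (edgeR adjusted p = 1.15e-06). LINC00094 and LINC00998, now filed as the coding genes BRD3OS and SMIM30, also rose and are described with the coding names below. LINC00665, the eighth by level, averaged 29.9 ± 1.69 CPM without and 27.9 ± 1.65 CPM with TGF-β1, which was not a call (edgeR adjusted p = 0.331).

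**Figure D2:**
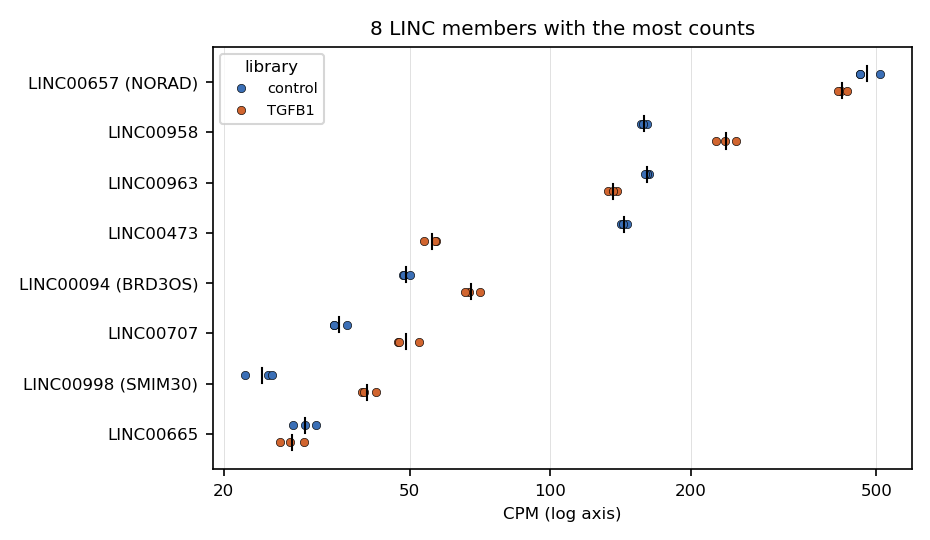
CPM (log axis) of the 8 LINC-numbered genes with the highest mean level, each point 1 library (blue control, orange TGFB1) and each black tick a mean of 3 libraries. NORAD is highest in all 6 libraries, between 414 and 509 CPM, and the groups are separate for every gene shown other than LINC00665.

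The summed level of the 99 genes differed between groups by less than the spread between libraries. It was 1622, 1564 and 1566 CPM in control and 1578, 1598 and 1553 CPM in TGFB1 libraries, and the difference of means was −7.30 CPM (exact two-sided permutation p = 0.8, where 3 against 3 cannot go below 0.1). Scaling by library size alone turned this difference to 54.6 CPM (exact permutation p = 0.2). Without NORAD, a split chosen after its values were seen, the other 98 genes summed to 1107 ± 5.00 CPM in control and 1154 ± 12.8 CPM in TGFB1 libraries, with no overlap of the groups (exact permutation p = 0.1, the smallest possible).

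The largest rises started from few reads in control libraries. LINC00941, a noncoding RNA on chromosome 12 described in several carcinomas, was at 0.220, 0.139 and 0.0668 CPM in control libraries and at 4.55, 4.77 and 4.53 CPM in TGFB1 libraries. It rose 31.2-fold (log2 4.97 ± 0.35 SE, edgeR adjusted p = 1.18e-12) on 6 control and 205 TGFB1 counts, and the TGFB1 libraries agreed closely with each other. LINC00704, now named MANCR for its link to mitosis, had 0, 0.278 and 0.0668 CPM in control and 1.77, 2.81 and 2.57 CPM in TGFB1 libraries. It rose 19.2-fold (log2 4.26 ± 0.49 SE, edgeR adjusted p = 2.28e-08). Since this rests on 5 control counts, 4 of them in control library 2, leaving that library out gave 54.8-fold. Leaving out control library 1 gave 13.4-fold. LINC00511, a noncoding RNA on chromosome 17 described in several carcinomas, went from 0.661, 1.39 and 0.735 to 4.82, 3.79 and 4.08 CPM, a 4.51-fold rise (log2 2.17 ± 0.26 SE, edgeR adjusted p = 4.78e-08). In all 3 genes the lowest TGFB1 library was above the highest control library. In none of the 3 did every control library have enough counts for the filter.

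Of the 10 largest rises 9 did not have enough counts in every control library to meet the filter there. LINC00521 (now CCDC197), LINC00475 and LINC01116 rose 3.88-fold, 3.78-fold and 3.13-fold, to 2.01 ± 0.177, 2.59 ± 0.228 and 1.40 ± 0.0913 CPM. Control library 2 had a single LINC00521 read and control library 3 had 15. The fold was 7.76 without control library 3 and 2.71 without control library 2. GENCODE 29 files LINC00475 as a pseudogene transcript, so its reads may be split with a related copy. LINC00639, LINC00926 and LINC00526 rose 2.42-fold, 1.92-fold and 1.76-fold, and their calls were the least firm. The LINC00639 call ended in DESeq2 (DESeq2 adjusted p = 0.0612) and without control library 2 (edgeR adjusted p = 0.0645), the LINC00926 call without control library 2 (edgeR adjusted p = 0.0819), and the LINC00526 call in DESeq2 (DESeq2 adjusted p = 0.124), without the filter on low counts (edgeR adjusted p = 0.0791) and without any 1 library other than TGFB1 library 2 (edgeR adjusted p = 0.0531 to 0.137).

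LINC00842 was the exception among the large rises, as it was well counted in both groups. It stood at 12.8, 10.2 and 14.2 CPM in control and at 28.3, 34.8 and 24.6 CPM in TGFB1 libraries, 2.37-fold higher (log2 1.25 ± 0.13 SE, edgeR adjusted p = 1.25e-07). The libraries of each group were spread widely, but the groups did not overlap. Its locus on chromosome 10 lies among duplicated genes of the ANXA8 family, and reads aligned to more than 1 place were not counted, so its level is uncertain.

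**Figure D3:**
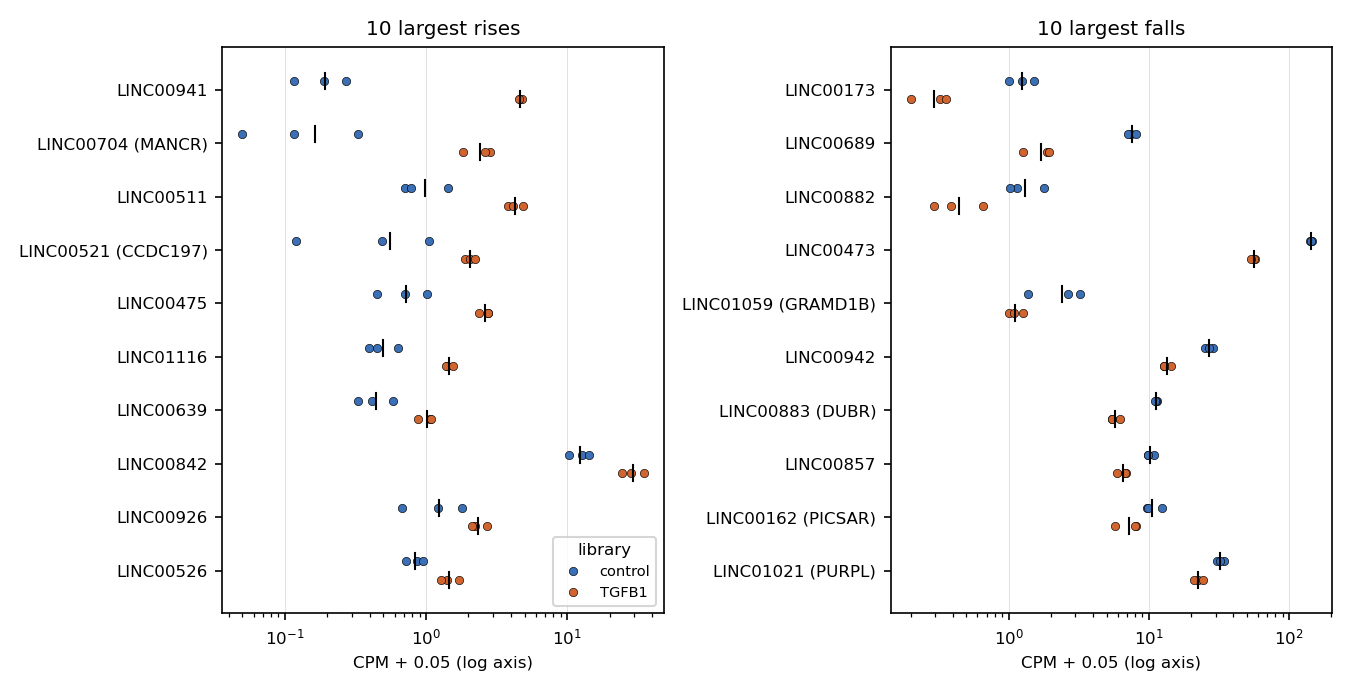
CPM plus 0.05 (log axis) in each library for the 10 largest rises (left) and the 10 largest falls (right) among called genes whose groups do not overlap, blue for control and orange for TGFB1, with black ticks at the means. Most rises start under 1 CPM in control libraries, whereas LINC00473 falls from above 140 CPM.

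The promoters of the most changed genes are shown, with that of LITATS1 for its name, because SMAD and AP-1 proteins act downstream of TGF-β receptors. The windows run from 250 bases before to 50 bases after the annotated start, from RefSeq on GRCh38.p14, and are written along the gene's strand. Capitals mark the SMAD-binding element CAGAC or its reverse complement GTCTG, and the AP-1 motif TGANTCA. The first is LINC00941 at chr12:30795431-30795730 on the plus strand, the second LINC00704 (MANCR) at chr10:4678021-4678320 on the minus strand, the third LINC01137 (LITATS1) at chr1:37474394-37474693 on the minus strand, and the others are the 2 largest falls, LINC00173 at chr12:116533172-116533471 and LINC00689 at chr7:159008104-159008403, both on the plus strand.
LINC00941: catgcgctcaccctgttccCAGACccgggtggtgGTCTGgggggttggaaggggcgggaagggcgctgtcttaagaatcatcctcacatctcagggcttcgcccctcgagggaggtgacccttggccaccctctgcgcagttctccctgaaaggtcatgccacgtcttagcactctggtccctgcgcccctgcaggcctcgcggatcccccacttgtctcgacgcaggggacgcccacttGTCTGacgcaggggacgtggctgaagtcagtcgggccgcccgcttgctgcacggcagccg
LINC00704: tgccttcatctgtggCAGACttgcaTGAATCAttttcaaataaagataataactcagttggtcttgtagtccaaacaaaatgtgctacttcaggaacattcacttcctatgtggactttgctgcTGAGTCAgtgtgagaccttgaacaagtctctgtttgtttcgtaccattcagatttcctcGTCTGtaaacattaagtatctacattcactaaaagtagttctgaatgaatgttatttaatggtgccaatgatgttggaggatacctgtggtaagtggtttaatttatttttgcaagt
LINC01137: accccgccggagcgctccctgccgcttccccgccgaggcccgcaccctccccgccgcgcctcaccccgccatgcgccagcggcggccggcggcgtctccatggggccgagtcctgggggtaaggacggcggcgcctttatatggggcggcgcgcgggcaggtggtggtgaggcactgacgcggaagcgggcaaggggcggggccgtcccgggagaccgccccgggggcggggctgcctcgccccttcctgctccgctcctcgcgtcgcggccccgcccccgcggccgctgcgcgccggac
LINC00173: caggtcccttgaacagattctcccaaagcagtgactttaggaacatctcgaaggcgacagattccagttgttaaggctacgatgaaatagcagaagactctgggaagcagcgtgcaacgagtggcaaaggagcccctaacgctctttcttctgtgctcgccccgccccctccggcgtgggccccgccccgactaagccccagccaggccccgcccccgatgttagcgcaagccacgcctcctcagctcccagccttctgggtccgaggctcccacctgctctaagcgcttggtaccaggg
LINC00689: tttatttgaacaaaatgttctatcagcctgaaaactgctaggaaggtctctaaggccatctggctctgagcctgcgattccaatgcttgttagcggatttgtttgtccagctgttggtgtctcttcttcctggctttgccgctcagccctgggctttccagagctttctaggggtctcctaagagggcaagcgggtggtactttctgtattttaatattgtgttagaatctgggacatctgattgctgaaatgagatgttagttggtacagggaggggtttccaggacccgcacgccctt

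LINC00941 held 3 matches to CAGAC and 0 to TGANTCA. LINC00704 held 2 matches to each. The other 3 windows held neither, which for LINC00173 covers only the first of its 2 listed windows. Promoter windows were found for 74 of the 99 genes, the first listed window being used for the 9 genes with more than 1. CAGAC was present in 6 of 18 higher, 4 of 9 lower and 19 of 46 not called genes, and in 45.0% of all 27305 promoters. TGANTCA was present in 3 of 18, 1 of 9 and 3 of 46, and in 7.76% of all promoters. The E-box CANNTG was in 14 of 18, 7 of 9 and 31 of 46, and in 68.9% of all. The SMAD palindrome GTCTAGAC was in 0 of the 74 and in 0.201% of all. Matches were counted on both strands, CAGAC does not lie within GTCTAGAC, and matches of the other motifs may overlap each other. A match is a letter pattern, not a bound site.

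The largest falls included genes of low and of high level. LINC00173, on chromosome 12, fell from 0.955, 1.46 and 1.20 to 0.272, 0.306 and 0.151 CPM, 4.74-fold lower (log2 −2.25 ± 0.43 SE, edgeR adjusted p = 8.71e-05) on 52 control and 11 TGFB1 counts. LINC00689, on chromosome 7, fell from 7.42, 7.08 and 8.01 to 1.83, 1.89 and 1.21 CPM, 4.49-fold lower (log2 −2.17 ± 0.19 SE, edgeR adjusted p = 9.03e-11). Groups were clearly apart for both. LINC00689 overlaps the coding gene VIPR2 on the opposite strand in GENCODE 29, and as the strand setting of the counter is not stated, reads of the overlapping stretch cannot be assigned to either gene. LINC00882 fell 3.27-fold, from 1.27 ± 0.409 to 0.396 ± 0.186 CPM, and like LINC00173 it had enough counts for the filter in control libraries alone.

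Better counted falls were smaller. LINC00942 fell from 25.3, 28.5 and 26.7 to 14.4, 12.9 and 12.8 CPM, 2.01-fold lower (log2 −1.01 ± 0.09 SE, edgeR adjusted p = 1.48e-10). LINC00883, now DUBR (DPPA2 upstream binding RNA), fell from 11.4, 11.2 and 11 to 5.44, 6.23 and 5.43 CPM, 1.95-fold lower (edgeR adjusted p = 2.08e-07). LINC00857 fell 1.57-fold, from 10.1 ± 0.616 to 6.48 ± 0.480 CPM. None of these groups overlapped. LINC00162, now PICSAR, named in cutaneous squamous carcinoma, fell 1.45-fold, from 10.6 ± 1.52 to 7.23 ± 1.30 CPM (edgeR adjusted p = 0.00205). LINC01021, now PURPL, a p53-induced RNA that restrains p53, fell from 34.4, 30.4 and 32.0 to 22.4, 24.3 and 21.1 CPM, 1.43-fold lower (edgeR adjusted p = 4.15e-06).

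LINC01137 and LINC00152 rose, and LINC01133 and LINC00467 did not pass. LINC01137 is now LITATS1, a name that stands for a long noncoding RNA induced by TGF-β that antagonises its signalling; it is given here because of that name, chosen after its values were seen. It was at 11.2, 8.95 and 9.35 CPM in control and 16.0, 15.7 and 16.9 CPM in TGFB1 libraries, with no overlap. It rose 1.65-fold (log2 0.72 ± 0.11 SE, edgeR adjusted p = 2.26e-06). LINC00152, now CYTOR (cytoskeleton regulator RNA), was at 15.5, 19.9 and 17.8 CPM in control and 30.7, 29.6 and 31.5 CPM in TGFB1 libraries. It rose 1.72-fold (log2 0.78 ± 0.09 SE, edgeR adjusted p = 1.28e-08). LINC01133, described in colorectal cancer as binding the splicing factor SRSF6, averaged 1.34 ± 0.423 CPM in control and 1.85 ± 0.365 CPM in TGFB1 libraries on 58 and 83 counts, short of the threshold (edgeR adjusted p = 0.185). LINC00467 stood at 11.8 ± 1.67 and 11.6 ± 0.366 CPM (log2 −0.03 ± 0.11 SE, edgeR adjusted p = 0.869).

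Of the 12 LINC-numbered rows that RefSeq now files as protein coding, 4 rose, 1 fell and 7 did not pass, so 41.7% were called against 47.3% of all tested genes. LINC00998, which encodes the small membrane protein SMIM30, was at 24.8, 25.3 and 22.2 CPM in control and at 39.5, 39.9 and 42.3 CPM in TGFB1 libraries. It rose 1.68-fold (log2 0.75 ± 0.07 SE, edgeR adjusted p = 1.44e-09), with the groups well apart. LINC00094 (BRD3OS, opposite strand to the bromodomain gene BRD3) rose 1.38-fold, from 48.4, 48.6 and 50.2 to 70.7, 66.9 and 65.8 CPM (edgeR adjusted p = 2.38e-07). BRD3 itself, with which it overlaps in GENCODE 29, rose from 45.0 to 50.7 CPM (log2 0.17, edgeR adjusted p = 0.0405), and without a known strand setting their shared stretch cannot be told apart. LINC00493, which encodes the mitochondrial protein SMIM26, rose 1.21-fold, from 11.1 ± 0.978 to 13.5 ± 1.04 CPM. This call was near the threshold (edgeR adjusted p = 0.0395) and ended in DESeq2 (DESeq2 adjusted p = 0.0978), without the filter on low counts (edgeR adjusted p = 0.0642) and without control library 1 or 2 or TGFB1 library 1 or 3 (edgeR adjusted p = 0.0846 to 0.165). The fourth rise was LINC00521 (CCDC197), given above.

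The row that fell, LINC01059, is a synonym of GRAMD1B, which encodes a sterol transfer protein and has a row of its own. LINC01059 fell from 3.16, 1.32 and 2.60 to 0.951, 1.04 and 1.21 CPM, 2.21-fold lower (edgeR adjusted p = 0.00277), the control libraries being spread more than the TGFB1 libraries. The GRAMD1B row averaged 30.4 ± 0.412 CPM in control and 31.6 ± 1.24 CPM in TGFB1 libraries (edgeR adjusted p = 0.538). LINC00116, which encodes mitoregulin (MTLN), a microprotein of the inner mitochondrial membrane, was at 5.72 ± 0.830 and 5.63 ± 0.527 CPM (log2 −0.03 ± 0.15 SE, edgeR adjusted p = 0.895). LINC00961, which encodes the lysosomal polypeptide SPAAR, was at 0.603 ± 0.0900 and 1.02 ± 0.187 CPM on 26 and 45 counts (edgeR adjusted p = 0.0982). LINC01155 (KANTR) was at 2.34 ± 0.466 and 1.60 ± 0.0870 CPM (edgeR adjusted p = 0.0699), and passed without control library 2 (edgeR adjusted p = 0.0345). LINC00984 (INAFM2), LINC01125 (C2orf92), LINC00176 (C20orf204) and LINC00854 (CCDC200) had adjusted p of 0.157 to 0.805 in edgeR, at 0.806 to 3.91 CPM.

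**Figure D4:**
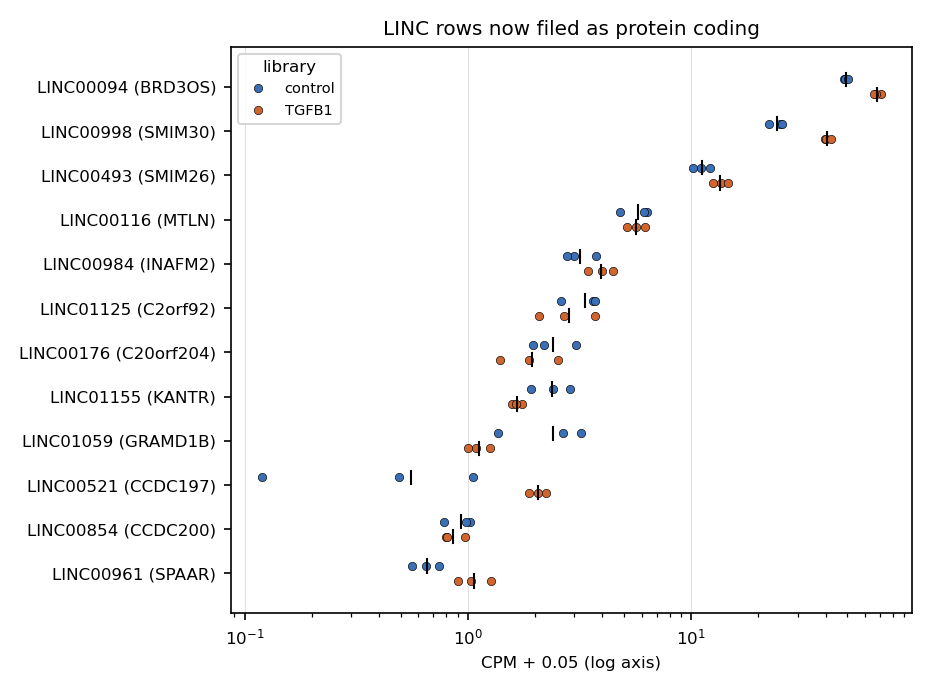
CPM plus 0.05 (log axis) in each library for the 12 LINC-numbered rows now filed as protein coding, current symbols in brackets, blue for control and orange for TGFB1, with black ticks at the means. The TGFB1 libraries lie to the right of the control libraries for BRD3OS, SMIM30, SMIM26, CCDC197 and SPAAR, of which SPAAR did not pass the test, and to their left for KANTR, which did not pass, and the GRAMD1B synonym.

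The other 10 called genes, outside the rule for named genes and listed for completeness, moved by less than 2-fold. LINC00322, LINC00313, LINC00482, LINC00115, LINC00342, LINC00938, LINC01106, LINC00476 and LINC00662 rose by 0.30 to 0.68 on the log2 scale, and LINC00969 (MIR570HG, a microRNA host) fell by 0.36. LINC00115 was the only called gene whose groups overlapped. The calls of LINC00115, LINC00322, LINC00476, LINC00662 and LINC01106 ended when at least 1 library was left out. Among the 59 that did not pass, the groups were nevertheless separate for 12. The best counted of the 59 were LINC00665, given above, LINC00319, LINC00667 and LINC01128. LINC00319 stood at 27.2 ± 1.68 and 26.5 ± 2.72 CPM (log2 −0.04 ± 0.08 SE, edgeR adjusted p = 0.754). LINC00667 was at 22.9 ± 0.956 and 20.7 ± 2.88 CPM and LINC01128 at 19.8 ± 1.27 and 22.2 ± 1.96 CPM. Both passed when TGFB1 library 3 was left out (edgeR adjusted p = 0.0141 and 0.0336), and LINC01128 also when TMM factors were not used (edgeR adjusted p = 0.0388).

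Several changed genes lay next to coding genes that changed too, in a share near that of coding genes in general, as given below. The pairs given here are examples. Neither neighbour of LINC00475, LINC01116 or LINC00942 passed, and SEC23A beside the rising LINC00639 fell (log2 −0.52, edgeR adjusted p = 1.07e-07). On their other sides, SLC39A11 beside LINC00511 and AKR1E2 beside LINC00704 did not pass (edgeR adjusted p = 0.431 and 0.424). LINC00511 lies next to SOX9, a transcription factor gene of the intestinal crypt and of cartilage, which went from 1.54 to 6.84 CPM (log2 2.14, edgeR adjusted p = 1.63e-09), close to the 2.17 of LINC00511. LINC00473 lies next to the phosphodiesterase gene PDE10A, which went from 32.0 to 14.6 CPM (log2 −1.13, edgeR adjusted p = 9.68e-12), where LINC00473 had −1.36. LINC00689 and VIPR2, a receptor for vasoactive intestinal peptide, had −2.17 and −2.21, but they overlap. LINC00704 has KLF6, a zinc finger factor gene, on one side (log2 0.47, edgeR adjusted p = 1.41e-05) and LINC00941 has CAPRIN2 (0.55, edgeR adjusted p = 0.0014), both with much smaller rises than the noncoding gene. LINC00842 lies next to ANXA8L1, which went from 4.10 to 15.3 CPM (edgeR adjusted p = 3.95e-13). NORAD fell by 0.17 between CNBD2 and EPB41L1, which fell by 2.22 and 1.64. LINC00958 went against its neighbour TEAD1, a Hippo pathway factor, which fell from 534 to 358 CPM (edgeR adjusted p = 1.76e-10).

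Over all 39 called LINC-numbered genes, 49 nearest coding genes were tested (1 on each side, by order along the chromosome in RefSeq). Of these 16 changed the same way, 10 the opposite way and 23 did not pass. That is 32.7% the same way and 20.4% the opposite way. For the 6265 called coding genes the nearest coding genes gave 34.7% and 18.9%, so the shares for LINC-numbered genes were near those for coding genes in general. LINC00882 and LINC00883 share the same neighbours, CBLB, which did not pass, and CCDC54, which fell by 3.52 on the log2 scale, so CCDC54 is counted for each of them. Another 29 neighbours were not tested.

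**Figure D5:**
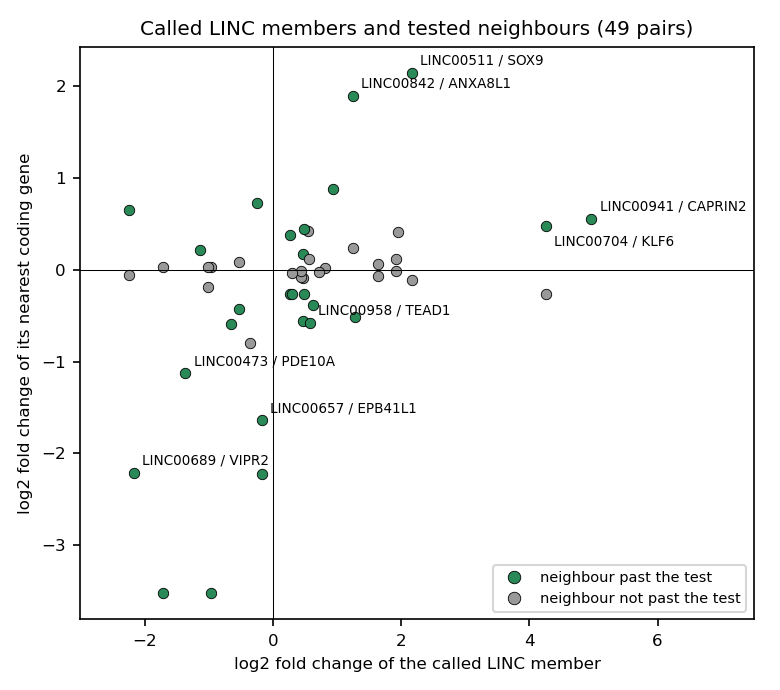
Log2 fold change of a called LINC-numbered gene (horizontal axis) and of its nearest tested coding gene on either side (vertical axis) for 49 pairs, green where the neighbour passed the test and grey where it did not. LINC00511 with SOX9 and LINC00689 with VIPR2 lie at similar values on both axes, whereas LINC00941 and LINC00704 lie far right of neighbours that rose little.

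Long noncoding RNAs without LINC numbers also went both ways. Of 42 listed 38 were tested, of which 11 rose (28.9%), 9 fell (23.7%) and 18 did not pass, near the 23.4% and 23.9% of all tested genes, with a median log2 fold change of 0.08. Under scaling by library size alone 15 rose and 8 fell. The 4 of lowest p were 3 falls and 1 rise. H19, an imprinted fetal transcript, fell from 95.8 ± 0.629 to 42.1 ± 2.53 CPM (edgeR adjusted p = 9.68e-16). FENDRR, a mesoderm transcript beside FOXF1, fell from 47.1 ± 2.01 to 23.0 ± 2.18 CPM and TINCR, an epidermal differentiation RNA, from 22.0 ± 0.633 to 9.02 ± 1.80 CPM. HOTAIR, transcribed from the HOXC cluster, rose from 6.97 ± 0.712 to 15 ± 1.32 CPM (edgeR adjusted p = 6.48e-09). Chosen after their values were seen, UCA1 and KCNQ1OT1 had the largest changes, both at low levels. Each had enough counts for the filter only in the group where it was high, so its direction was partly fixed by that filter. UCA1, a transcript first described in bladder carcinoma, had 0 counts in control libraries and 1.77, 1.34 and 1.43 CPM in TGFB1 libraries (edgeR adjusted p = 2.78e-08), and KCNQ1OT1, an imprinted antisense RNA, fell from 1.38 ± 0.436 to 0.2 ± 0.133 CPM (edgeR adjusted p = 1.86e-05).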

How the data were processed

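The authors deposited 1 table per library of raw read counts by gene symbol, without normalization. The submitters' processing notes name HTSeq, TopHat, TopHat2 2.0.11, GRCh37 and hg19, without saying what each was used for. Annotation, strand setting and read filters are not stated. Summary lines of the counter were left out of all fits (no feature 5.44% to 5.98%, ambiguous 9.01% to 9.43%, aligned to several places 12% to 12.5%).

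The filter was edgeR's filterByExpr with a minimum count of 10 and a minimum total of 15, here about 0.682 CPM in at least 3 libraries. Genes that met it were scaled by TMM (factors 0.975 to 1.02) and tested over the whole table with edgeR 4.0.16 (robust glmQLFit and glmQLFTest, two-sided) with Benjamini-Hochberg adjustment over all 14897 genes and a threshold of 0.05. Alternatives used DESeq2 1.42.0, limma 3.58.1 (voom), other scalings and filters, a replicate block, and each library left out. A standard error is the log2 fold change divided by the root of its F. Scripts were tested on simulated data. No libraries of a group were duplicates: their counts differed beyond sampling noise (chi-square over degrees of freedom 1.76 to 4.34).

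Named genes were the 10 largest rises and falls among called genes without overlap, the 8 highest in level, the 4 best counted that did not pass, all rows now filed as coding, 10 fixed symbols of which 7 met the rule, and the genes at the edge of the rule. The genes and lists were chosen with earlier results of these data known. Symbols, neighbours and promoters come from RefSeq, and lengths and overlaps from GENCODE 29, both of another build than the files; 95 of the 99 genes matched GENCODE 29.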

Additional observations from a re-analysis of the deposited data

How the results depend on the processing

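Of the 39 called LINC-numbered genes 28 kept their call and direction in all 14 alternative fits, and 30 kept them without each library in turn. A call also counted as lost where a fit did not test the gene. LINC00173 and LINC00882 were not tested under a filter of at least 1 CPM in 3 libraries and kept their calls in every other fit. Across the 41 named genes no called direction reversed, and 7 had at least 1 alternative on the other side of the threshold. The count of higher genes was 26, with 19 in DESeq2, 29 with scaling by library size alone and 21 to 25 when 1 library was left out. The count of lower genes was 13, with 13 in DESeq2 and 13 to 16 when 1 library was left out. Of all tested genes 47.3% were called in either direction in the main fit and 40.6% in DESeq2. Scaling by library size alone gave 47.6%, and leaving out 1 library gave 40.2% to 44.8%. Among the 80 genes that met the count filter in both groups, a choice made after the data were seen, 17 were higher and 11 lower. These were 21.2% and 13.8%, where the 98 tested genes gave 26.5% and 13.3%. The difference in summed level was 54.6 CPM with scaling by library size alone and 47.1 CPM without LINC00657, the latter also chosen after the data were seen, and the cause was not tested. Leaving out 1 library gave −18.0 to 11.9 CPM. With the replicate block 25 genes were higher and 14 lower, where 45.5% of all tested genes were called. Same-numbered libraries of the 2 groups did not deviate together (correlations of 0.0382, −0.284 and −0.0587 across genes), so the numbers were not taken to pair the libraries. The highest correlations were between different numbers, 0.254 for control 1 with TGFB1 2 and 0.296 for control 2 with TGFB1 3, and no other pairing was fitted. No fit at another depth was made.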
